A study of Mus musculus with 6 samples.

Results

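The 10 immediate early genes described here were Fos, Fosb, Fosl1, Jun, Junb, Egr1, Egr2, Ier2, Atf3, and Dusp1, chosen by symbol from the 27546 genes of an RNA-Seq table of mouse distal colon. The table held 1 library for each of 3 Gm31629-/- mice and 3 WT littermates on the C57BL/6 strain. Gm31629 is a long noncoding RNA gene on chromosome 1, and the methods describe a targeted deletion of its sequence without naming a tissue-specific Cre. All 6 mice were 8 weeks old, drank 3% DSS for 7 days, and were killed on day 8. DSS is dextran sulfate sodium, which damages the lining of the colon. Every comparison below is therefore between genotypes under the same injury, and untreated colon was not analysed here. The methods describe the RNA as pooled from 3 mice of each genotype, whereas the table has a column for each mouse, and the columns were treated as separate mice. If they came from pools, the p-values measure only the spread between libraries. The sources used here do not say which mice shared a litter or a cage.

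Immediate early genes are transcribed within minutes of a stimulus, without new protein synthesis, when MAP kinases and calcium signals act on factors already bound at their promoters. Fos and Jun family proteins pair through leucine zippers to form AP-1, which binds DNA at sites shared by many growth, wound, and inflammation genes. Egr1 and Egr2 are zinc finger factors, Atf3 is a stress-induced factor of the ATF/CREB family, Ier2 is a small nuclear protein, and Dusp1 is a phosphatase that switches off MAP kinases and so limits the same response. In the gut these genes respond to growth factors, bacterial products, stretch, and tissue handling, in epithelial, stromal, muscle, and immune cells alike.

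RefSeq promoters (GRCm38.p6) were found for 7 of the 10 genes, and those of Egr1, Fosl1, and Ier2 were not searched. Those of Dusp1 and Junb are shown because these 2 genes were called higher in Gm31629-/- mice, and those of Fos and Jun because these founding AP-1 genes had nearly the same mean in both genotypes. Each run is the 250 bases before the annotated start, 5′ to 3′ on the gene's strand, with matches to any of 6 searched motifs in capitals.
Dusp1 (chr17:26508473-26508722, minus strand): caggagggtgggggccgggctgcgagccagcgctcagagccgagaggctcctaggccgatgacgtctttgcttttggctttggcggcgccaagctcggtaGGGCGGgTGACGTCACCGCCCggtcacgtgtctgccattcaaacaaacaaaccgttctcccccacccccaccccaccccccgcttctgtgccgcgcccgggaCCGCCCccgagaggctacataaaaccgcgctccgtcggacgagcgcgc
Junb (chr8:84978749-84978998, minus strand): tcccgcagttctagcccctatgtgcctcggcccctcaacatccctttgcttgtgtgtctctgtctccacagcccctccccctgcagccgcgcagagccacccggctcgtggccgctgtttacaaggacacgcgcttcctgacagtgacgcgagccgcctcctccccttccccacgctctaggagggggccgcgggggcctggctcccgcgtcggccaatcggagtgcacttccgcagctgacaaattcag
Fos (chr12:85473640-85473889, plus strand): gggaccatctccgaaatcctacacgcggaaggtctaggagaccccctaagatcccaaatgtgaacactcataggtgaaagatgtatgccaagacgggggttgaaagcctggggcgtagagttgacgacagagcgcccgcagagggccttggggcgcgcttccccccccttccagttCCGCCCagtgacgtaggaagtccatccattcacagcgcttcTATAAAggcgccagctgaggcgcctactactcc
Jun (chr4:95052223-95052472, minus strand): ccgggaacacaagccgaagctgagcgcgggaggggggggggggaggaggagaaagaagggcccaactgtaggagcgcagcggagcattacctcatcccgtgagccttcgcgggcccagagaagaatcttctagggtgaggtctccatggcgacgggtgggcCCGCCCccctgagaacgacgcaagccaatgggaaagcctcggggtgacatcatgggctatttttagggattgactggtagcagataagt
The motifs were searched on both strands as the CRE TGACGTCA (the full site of CREB/ATF factors), the AP-1 site TGACTCA, the GC box GGGCGG, the TATA box TATAAA, the EGR site GCGTGGGCG, and the CArG box of serum response factor. The Dusp1 window held a full CRE from -143 to -136 between 2 GC boxes that did not overlap it, at -150 to -145 and at -135 to -130, counted back from the annotated start, and another GC box from -48 to -43. A full CRE was present in 1.55% of 32851 mouse promoter windows of this length and a GC box in 32.7%. The Fos window held a TATA box from -33 to -28 (12.4% of all windows) and a GC box, the Jun window a GC box, and the Junb window none of these letters. A CArG box, present in 1.47% of all windows, was matched in 4 of the 5 Egr2 windows, of which 3 overlap and hold the same match. It was in none of the windows of the other 6 genes searched, and bases farther upstream than 250 were not searched. These matches describe the sequence alone, and no binding was measured.

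By the size of 1 fragment, recovered from FPKM (fragments per kilobase of gene and scaled to library depth) and exon length, the libraries were divided by depths of 17988000 to 18776400 fragments, so depth differed little between mice. For the members, the fewest fragments in a library were about 8 (Egr2 in WT mouse 2) and the most about 10354 (Junb in Gm31629-/- mouse 2). Of the 4 Y-linked genes looked at, all 4 were above 0.1 FPKM in Gm31629-/- mouse 1 and none in the other 5 libraries, where Xist was present, so this mouse differed in sex from all the others, while the methods name male mice. Correlations of log2 values across genes, which are not independent replicates, were 0.979 to 0.985 between WT mice and 0.915 to 0.937 between Gm31629-/- mice. Epithelial markers were present in every library (summed FPKM 7877 to 17642), so each library held epithelium, and the region of the gut was not tested by markers. Gm31629 itself was not analysed here, so the genotype labels were not checked by it.

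Genes were compared with limma on log2(FPKM + 1) across all 14657 genes with a mean of at least 0.5 FPKM over the 6 libraries. Calls needed a log2 fold change above 1 or below -1 together with an adjusted p (Benjamini-Hochberg) below 0.05. Of the 10 immediate early genes, all 10 passed the filter, 2 were called higher in Gm31629-/- mice (Dusp1 and Junb), and 0 were called lower. The background was 18.4% of all tested genes called higher and 4.64% called lower, so the share of members called was close to the background. At an unadjusted limma p under 0.05, 3 members were higher and 0 lower, against 33.9% and 18.9% of tested genes. Limma voom on the recovered fragments called 3 members higher and 0 lower, against 24.9% and 6.77% of the genes it tested. On adjusted p alone, Dusp1 and Junb were again the 2 that passed, against 43.5% of tested genes. Dusp1, Junb, and Egr2 were the 3 members without overlap between genotypes, all with Gm31629-/- above, against a background of 57.8% for either direction, 36.3% with Gm31629-/- above, and 21.5% with it below. The log2 fold change was above 0 for 9 of the 10 members and for 57.9% of tested genes. The median log2 fold change of the members was 0.82, and that of all tested genes was 0.15.

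**Figure D1:**
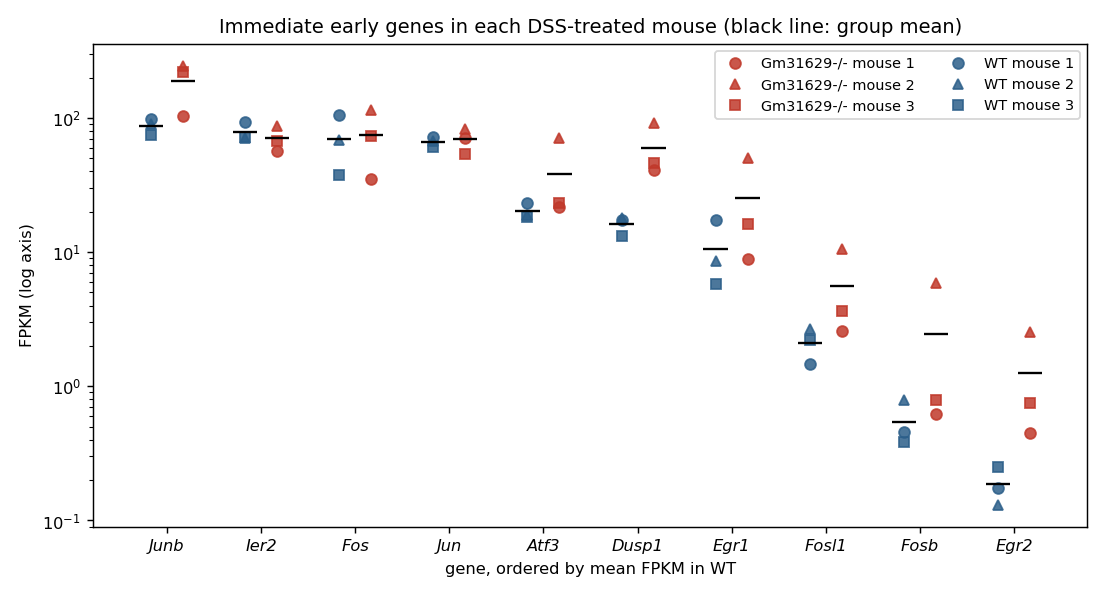
FPKM of the 10 immediate early genes on a log axis, with 1 symbol per mouse (circles, triangles, and squares for mice 1, 2, and 3; WT in blue, Gm31629-/- in red) and black lines at the group means. Gm31629-/- mouse 2 is the highest of the 6 libraries for 9 of the 10 genes, and for Dusp1, Junb, and Egr2 all red symbols lie above all blue ones.

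The feedback phosphatase Dusp1 (ENSMUSG00000024190, chromosome 17, 26505590 to 26562128 of GRCm38) showed the largest log2 fold change of the 10 genes on the log2(FPKM + 1) scale. Its FPKM was 41.1, 92.3, and 46.1 in Gm31629-/- mice 1 to 3 and 17.5, 18.1, and 13.1 in WT mice 1 to 3. Every Gm31629-/- value exceeded every WT value, and the lowest of them was above the highest WT value by a wide margin. The means were 59.8 ± 28.2 and 16.2 ± 2.69 FPKM (SD, n = 3 each), a ratio of 3.69. On the log2 scale the difference was 1.74 (standard error 0.31, 95% interval 1.01 to 2.47, limma adjusted p = 0.00477). Dusp1 stayed called in 6 of 6 fits that each left out 1 mouse (log2 fold change 1.38 to 1.96, adjusted p 0.00269 to 0.0258). It shares 11 of its 3311 exon bases with Ergic1 on the opposite strand.

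Junb (ENSMUSG00000052837, chromosome 8, 84974484 to 84978718), the Jun family member often paired with Fos proteins, was the most abundant of the 10 genes in both genotypes. It had 103, 244, and 222 FPKM in Gm31629-/- mice 1 to 3 and 98.1, 90.2, and 74.7 FPKM in WT mice 1 to 3. Mice 2 and 3 of the knockout group stood well above WT, whereas mouse 1 lay just above the highest WT value. The means were 189.5 ± 75.9 and 87.6 ± 11.9 FPKM (SD, n = 3 each), and the log2 fold change was 1.02 with its standard error of 0.33 (95% interval 0.25 to 1.79, limma adjusted p = 0.0407). The call lay at both thresholds. Without Gm31629-/- mouse 1, the mouse of the other sex, the log2 fold change was 1.41 (adjusted p = 0.00156), and without any other single mouse Junb was not called. The adjusted p was then 0.0999 without Gm31629-/- mouse 2, 0.118 without Gm31629-/- mouse 3, 0.0794 without WT mouse 1, 0.0900 without WT mouse 2, and 0.135 without WT mouse 3. Junb shares 173 of its 2301 exon bases with Prdx2 on the opposite strand, and the library kit is not stated to keep strand.

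**Figure D2:**
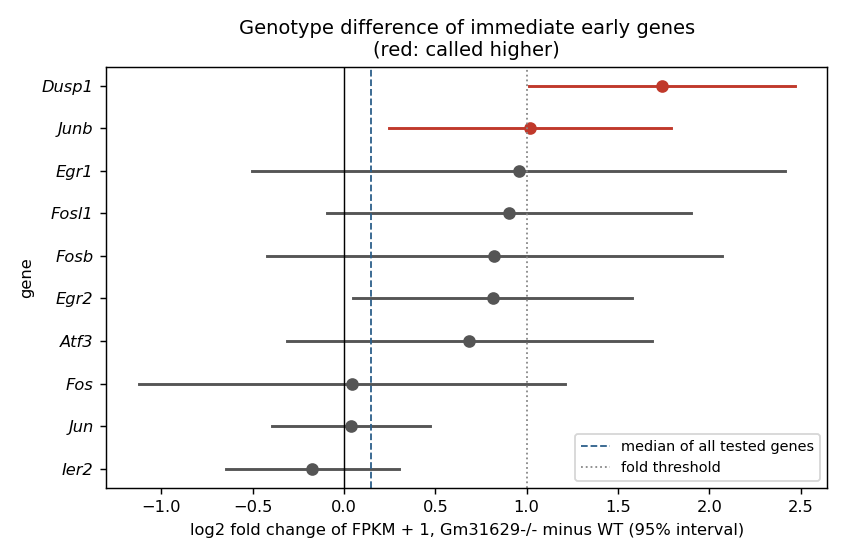
Log2 fold change of FPKM + 1, Gm31629-/- minus WT, for each immediate early gene, with its 95% interval from limma over 3 mice per genotype. Red marks Dusp1 and Junb, which were called higher, the dashed line is the median of all tested genes (0.15), and the intervals of Fos, Fosb, Fosl1, Jun, Egr1, Ier2, and Atf3 include 0.

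Egr2 (ENSMUSG00000037868, chromosome 10, 67535475 to 67542188), a zinc finger factor of myelinating glia and activated lymphocytes among others, was the least abundant member. It had 0.448, 2.55, and 0.753 FPKM in Gm31629-/- mice 1 to 3, from about 28, 160, and 47 fragments. In WT mice 1 to 3 it had 0.175, 0.131, and 0.251 FPKM, from about 11, 8, and 16 fragments. The groups did not overlap, but the gene passed the filter only through its Gm31629-/- values, since the WT mean was 0.185 FPKM. Its log2 fold change was 0.81 (standard error 0.32, limma adjusted p = 0.0788), which did not pass. The pseudocount of 1 compresses values this low. With a pseudocount of 0.1, the log2 fold change was 1.93 (adjusted p = 0.0372), with voom it was 2.36 (adjusted p = 0.0445), and without Gm31629-/- mouse 1 it was 1.07 (adjusted p = 0.0291), each of which was called. Without Gm31629-/- mouse 2, Egr2 was below the filter.

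The means of Egr1, Atf3, Fosb, and Fosl1 were higher in Gm31629-/- mice by ratios of 1.90 to 4.49, and none of these differences passed the test. Egr1, the related factor induced by serum and stretch, had 8.88, 50.5, and 16.3 FPKM in Gm31629-/- mice 1 to 3 and 17.4, 8.60, and 5.80 FPKM in WT mice 1 to 3. The groups overlapped, since Gm31629-/- mice 1 and 3 lay below WT mouse 1 (log2 fold change 0.96, 95% interval -0.50 to 2.42, limma adjusted p = 0.245). Atf3 had 21.7, 70.4, and 23.2 FPKM in Gm31629-/- mice 1 to 3 and 23.4, 19.0, and 18.3 FPKM in WT mice 1 to 3. Only Gm31629-/- mouse 2 stood apart from WT for this stress-induced gene (log2 fold change 0.69, 95% interval -0.31 to 1.68, adjusted p = 0.224). Fosb, a Fos relative, had 0.618, 5.93, and 0.785 FPKM in Gm31629-/- mice 1 to 3 and 0.459, 0.792, and 0.384 FPKM in WT mice 1 to 3. Gm31629-/- mice 1 and 3 lay within the WT range, and the log2 fold change was 0.82 (95% interval -0.42 to 2.07, adjusted p = 0.242).

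Fosl1 encodes Fra-1, a Fos relative without the Fos transactivation domain that accumulates later than Fos. It had 2.58, 10.5, and 3.64 FPKM in Gm31629-/- mice 1 to 3 and 1.46, 2.67, and 2.21 FPKM in WT mice 1 to 3. The groups overlapped by Gm31629-/- mouse 1 alone (log2 fold change 0.91, 95% interval -0.09 to 1.90, limma adjusted p = 0.122), and without that mouse the gene was called (log2 fold change 1.25, adjusted p = 0.0452). Of its 2033 exon bases, 1163 are shared with Ccdc85b on the opposite strand, which had 72.6 FPKM in Gm31629-/- mice and 34.4 FPKM in WT mice on average. Without strand, fragments in that stretch cannot be assigned to either gene, so the level of Fosl1 is uncertain.

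Fos, Jun, and Ier2 had nearly equal means in the genotypes. Fos (ENSMUSG00000021250, chromosome 12, 85473890 to 85477273), the founding member of the class, had 35.1, 113.6, and 73.5 FPKM in Gm31629-/- mice 1 to 3 and 105, 68.1, and 37.4 FPKM in WT mice 1 to 3. The highest and the lowest values both came from Gm31629-/- mice, and the WT mice covered almost the same range. The means were 74.1 ± 39.3 and 70.2 ± 34.0 FPKM (SD, n = 3 each), with a log2 fold change of 0.04. Its 95% interval of -1.12 to 1.21 still includes a change past the fold threshold in either direction (limma adjusted p = 0.950).

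Jun (ENSMUSG00000052684, chromosome 4, 95049034 to 95052222), a gene with a single exon, was the steadiest member. It had 71.1, 82.4, and 54.0 FPKM in Gm31629-/- mice 1 to 3 and 71.5, 67.0, and 60.9 FPKM in WT mice 1 to 3, so the highest and the lowest of the 6 values differed by a ratio of 1.53. Its log2 fold change was 0.04 with a 95% interval of -0.39 to 0.47 (limma adjusted p = 0.877). For Jun and for Ier2 the interval lies inside the fold threshold, unlike that of Fos. Ier2 had 57.2, 87.6, and 67.0 FPKM in Gm31629-/- mice 1 to 3 and 93.7, 71.4, and 72.3 FPKM in WT mice 1 to 3, with overlapping groups (log2 fold change -0.17, 95% interval -0.65 to 0.30, adjusted p = 0.510). After each library was rescaled by its median ratio, which moved the median of all tested genes from 0.15 to -0.06, the log2 fold changes of Fos and Jun were -0.21 and -0.22 and that of Dusp1 was 1.49. Relative to the median of all genes, Dusp1 was higher by 1.59 as deposited and by 1.55 after this rescaling, and Junb by 0.87 and 0.82. Junb was not called after the rescaling (log2 fold change 0.76, adjusted p = 0.114).

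The spread between mice was wide for most members. In the Gm31629-/- group, mouse 2 had the highest value for 10 of the 10 genes, against 44% of all tested genes, and mouse 1 had the lowest for 9 of them, against 31.6%. The value in mouse 2 exceeded the mean of mice 1 and 3 by ratios of 1.32 (Jun) to 8.45 (Fosb), with a median of 2.63 over the members and 1.07 over all tested genes. Over all 6 libraries, mouse 2 was highest for 9 of the 10 members, against 28.9% of tested genes. The within-group SD of log2(FPKM + 1) was larger in Gm31629-/- than in WT mice for 10 of the 10 members, against 70.8% of tested genes. Its median over the members was 0.76 in Gm31629-/- mice and 0.21 in WT mice, beside 0.27 and 0.16 over all tested genes.

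In WT mice the spread was concentrated in Fos and Egr1. Fos was 2.81 times and Egr1 3.01 times as high in WT mouse 1 as in WT mouse 3, and the WT SD of each gene was larger than that of 98.4% and 98.3% of tested genes. By contrast Jun lay at the 33.2 percentile and Egr2 at the 17.2 percentile of the same measure. WT mouse 1 had the highest WT value for 6 of the 10 members, against 27.2% of tested genes.

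**Figure D3:**
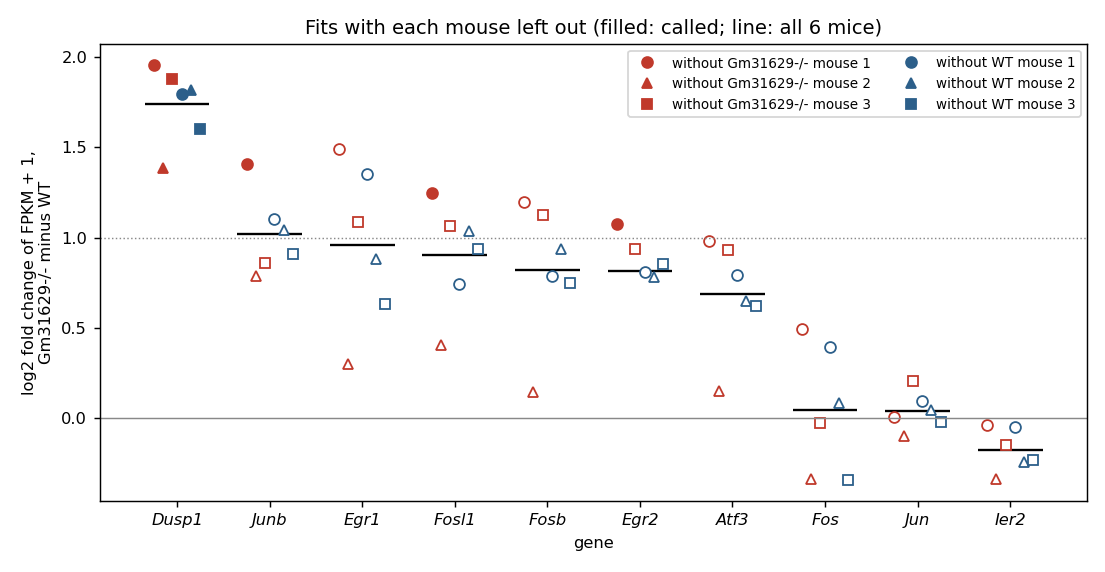
Log2 fold change of FPKM + 1 (Gm31629-/- minus WT) for each immediate early gene in fits that each left out 1 mouse, beside a line for the fit with all 6 mice. Filled symbols were called, which was the case in 6 of 6 fits for Dusp1 and only in the fit without Gm31629-/- mouse 1 for Junb, Fosl1, and Egr2. The point for Egr2 without Gm31629-/- mouse 2 is absent because the gene was then below the filter.

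Leaving out Gm31629-/- mouse 1 gave 4 members called higher (Dusp1, Junb, Fosl1, and Egr2), beside 2690 of all 14361 tested genes. Egr2 was tested there only through its Gm31629-/- values. Leaving out any of the other 5 mice gave 1 member called higher, which was Dusp1. Over all genes, those 5 fits called 2295 to 2913 higher among 14332 to 14865 tested. Without Gm31629-/- mouse 2, the log2 fold change was 0.30 for Egr1, 0.15 for Atf3, 0.15 for Fosb, and 0.41 for Fosl1, in place of 0.96, 0.69, 0.82, and 0.91. That of Dusp1 was 1.38 without the same mouse.

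Levels in FPKM are per length and were set side by side between genes. The place of Fosl1 in the order is uncertain, because of the exon bases it shares with Ccdc85b. In WT mice the order was Junb, Ier2, Fos, Jun, Atf3, Dusp1, Egr1, Fosl1, Fosb, and Egr2, from 87.6 down to 0.185 FPKM. The ranges of Junb, Ier2, Fos, and Jun overlapped from neighbor to neighbor, as did those of Dusp1 and Egr1, and the other neighbors were separate. In Gm31629-/- mice the order was Junb, Fos, Ier2, Jun, Dusp1, Atf3, Egr1, Fosl1, Fosb, and Egr2, from 189.5 down to 1.25 FPKM, and every neighboring pair overlapped in range.

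Among the 7 Fos and Jun family genes (the 5 members with Fosl2 and Jund), Junb held 36.7%, 46.8%, and 53.7% of the summed FPKM in Gm31629-/- mice 1 to 3 and 30.2%, 31.2%, and 32.4% in WT mice 1 to 3. The Junb shares did not overlap between genotypes and were spread more widely in Gm31629-/- mice. Jun held 25.4%, 15.8%, and 13.1% in Gm31629-/- mice 1 to 3 and 22.0%, 23.2%, and 26.4% in WT mice 1 to 3, with Gm31629-/- mouse 1 inside the WT range. The ratio of Junb to Jun was 1.45, 2.96, and 4.10 in Gm31629-/- mice 1 to 3 and 1.37, 1.35, and 1.23 in WT mice 1 to 3. The Fos genes together held 28.5% ± 3.68 in Gm31629-/- mice and 36.5% ± 4.88 in WT mice (SD, n = 3 each), and these ranges overlapped. Fosl2 and Jund, the other Fos and Jun relatives, had log2 fold changes of 0.19 and 0.29 (limma adjusted p = 0.382 and 0.177). These shares are descriptions and were not tested.

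**Figure D4:**
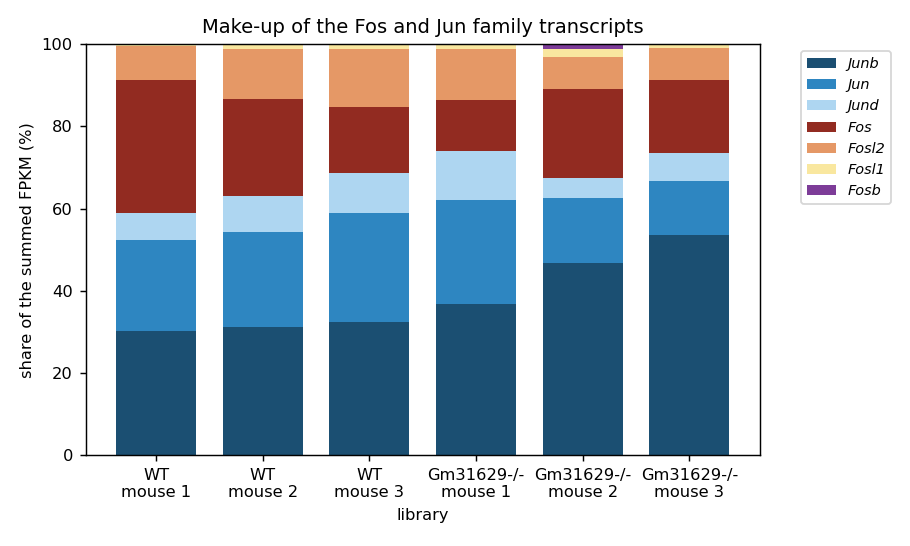
Share of the summed FPKM of 7 Fos and Jun family genes held by each gene, in percent, with 1 bar per library (3 WT mice, then 3 Gm31629-/- mice). Junb takes 30.2% to 32.4% of the WT bars and 36.7% to 53.7% of the Gm31629-/- bars, while Fosb and Fosl1 are thin bands in all of them.

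Genes around these members were read from lists of their regulators, partners, and relatives. Of 13 other AP-1 subunits and partners, 6 were called higher and 0 lower by limma and by voom. At an unadjusted limma p under 0.05 the counts were 8 and 0. The background was 18.4% higher and 4.64% lower by limma, 24.9% and 6.77% by voom, and 33.9% and 18.9% at the unadjusted p. The limma median log2 fold change of this list was 0.72. The largest differences were in Jdp2 and Batf, which form dimers with Jun proteins, with log2 fold changes of 2.43 and 2.0 (limma adjusted p = 0.00199 and 0.00234). Nab2, a corepressor that binds Egr proteins, had 4.42 ± 2.72 FPKM in Gm31629-/- mice and 0.468 ± 0.0690 FPKM in WT mice (SD, n = 3 each) and was called higher (log2 fold change 1.76, adjusted p = 0.00659), and Nab1 was not called (0.32, adjusted p = 0.460). The WT means of Nab2 and Batf (0.468 and 0.407 FPKM) were below the filter, as was that of Batf3 (0.382 FPKM), another called AP-1 partner. Nab2, Batf, and Batf3 were therefore tested only through their Gm31629-/- values. Egr3 and Egr4 were below the filter, and Egr3 had 0.580 to 1.24 FPKM in Gm31629-/- mice and 0.135 to 0.164 FPKM in WT mice.

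The Nr4a genes, orphan nuclear receptors induced with the Egr genes, followed the members in which mouse was highest. Nr4a1 had 6.35, 67.4, and 21.7 FPKM in Gm31629-/- mice 1 to 3 and 4.61, 3.37, and 3.85 FPKM in WT mice 1 to 3 (log2 fold change 2.19, limma adjusted p = 0.0409). Every Gm31629-/- value lay above WT, with mouse 1 close to it. Nr4a3 was called as well (1.23, adjusted p = 0.0257), and Nr4a2 was not (1.28, adjusted p = 0.106). Nr4a3 had a WT mean of 0.142 FPKM and, like Egr2, was tested only through its Gm31629-/- values. These calls depended on single mice, since all 3 Nr4a genes were called without Gm31629-/- mouse 1, Nr4a3 alone without Gm31629-/- mouse 3, and 0 of them without any single WT mouse. Without Gm31629-/- mouse 2, Nr4a3 was below the filter, and neither of the other Nr4a genes was called.

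Of 35 other early response genes, 18 were called higher and 1 lower (limma), with a median log2 fold change of 1.12, beside the background of 18.4% and 4.64%. The count of higher genes was 13 to 20 when each mouse was left out, and was lowest without Gm31629-/- mouse 2. Klf2, a factor of endothelium and resting lymphocytes, and the C/EBP factors Cebpd and Cebpb of the acute phase response differed most (log2 fold change 3.60, 3.34, and 3.00, adjusted p = 0.000139, 0.000556, and 0.00365). Klf4, a factor of differentiated colonocytes, was the most abundant of the list and was not called (-0.32, adjusted p = 0.296). The lower gene, named after its value was seen, was Myc, a growth regulator downstream of Wnt signals, with 7.64 ± 3.43 FPKM in Gm31629-/- mice and 18.2 ± 6.84 FPKM in WT mice (SD, n = 3 each; log2 fold change -1.14, adjusted p = 0.0395). Myc stayed called only without Gm31629-/- mouse 2 or WT mouse 2 among the 6 fits that left out a mouse (adjusted p 0.0184 to 0.137 over the 6).

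**Figure D5:**
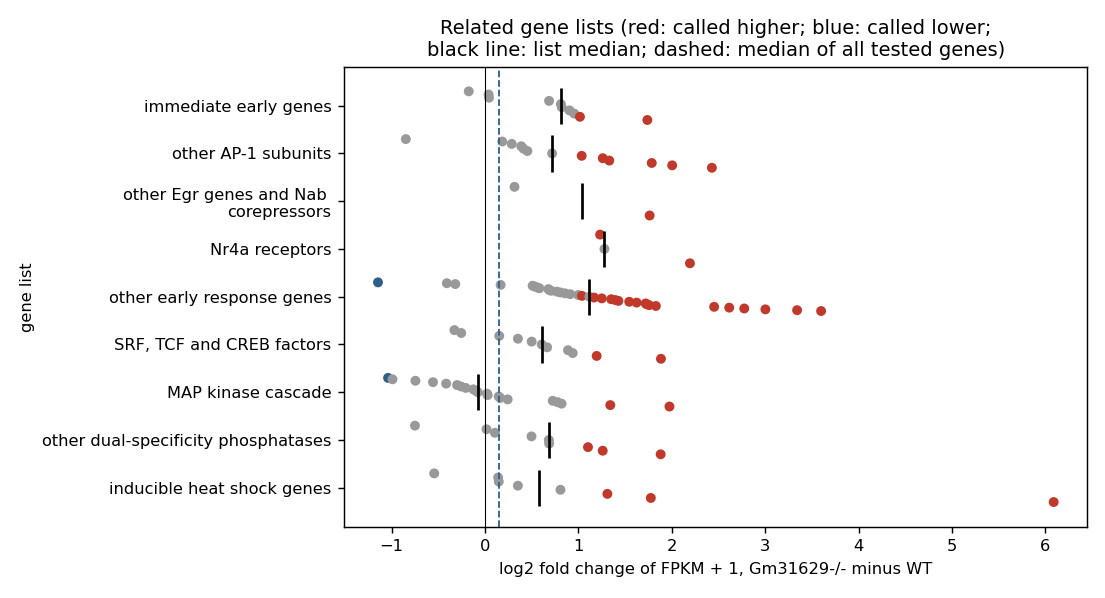
Log2 fold change of FPKM + 1 (Gm31629-/- minus WT) of each tested gene in the immediate early gene set and 8 related lists, with red for genes called higher, blue for genes called lower, black lines at list medians, and a dashed line at the median of all tested genes (0.15). The MAP kinase cascade has the only list median below 0 (-0.08), and Hspb1 is the far point at 6.09.

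Kinases and transcription factors that switch these genes on were read in the same way. Of 21 tested genes of the MAP kinase cascade, 2 were called higher and 1 lower by limma (background 18.4% and 4.64%). The higher genes were the p38 kinases Mapk12 and Mapk11 (1.98 and 1.34 on the log2 scale, limma adjusted p = 0.000799 and 0.00897). The lower gene was Map2k6, which activates p38 (-1.04, adjusted p = 0.00855). Map2k6 was not called without Gm31629-/- mouse 2 or WT mouse 2 (log2 fold change -0.83 and -0.98). The most abundant kinase, the ERK gene Mapk3, had 205 ± 38.5 FPKM in Gm31629-/- mice and 342 ± 34.1 FPKM in WT mice (SD, n = 3 each; log2 fold change -0.74, adjusted p = 0.0162), short of the fold threshold. Of 11 serum response, ternary complex, and CREB factors, 2 were called higher and 0 lower by limma (background 18.4% and 4.64%). The 2 were Elk3 (1.88, limma adjusted p = 0.00118) and Crem (1.2, adjusted p = 0.0327). By voom 5 were called higher and 0 lower (background 24.9% and 6.77%), and at an unadjusted limma p under 0.05 the counts were 7 and 0 (background 33.9% and 18.9%). Crem stayed called only without Gm31629-/- mouse 1 (1.49, adjusted p = 0.0137) among the fits that left out a mouse. Srf, the factor that binds CArG boxes, had a log2 fold change of 0.35 (adjusted p = 0.166).

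Of 9 other dual-specificity phosphatases, 3 were called higher and 0 lower by limma, and 3 higher and 1 lower by voom. At an unadjusted limma p under 0.05, 4 were higher and 1 lower. The lower gene there was Dusp9, with a log2 fold change of -0.75, and 8 of the 9 genes had one above 0. Dusp9 had means of 0.266 FPKM in Gm31629-/- mice and 1.19 FPKM in WT mice. Its Gm31629-/- mean was below the filter, so Dusp9 was tested only through its WT values. The background was 18.4% higher and 4.64% lower by limma, 24.9% and 6.77% by voom, and 33.9% and 18.9% at the unadjusted p. Dusp2, a phosphatase of activated immune cells, Dusp5, and Dusp6, both of which act on ERK, had log2 fold changes of 1.88, 1.26, and 1.10 (limma adjusted p = 0.00927, 0.00297, and 0.0355). Dusp6 stayed called only without Gm31629-/- mouse 1 (1.36, adjusted p = 0.0194) among the fits that left out a mouse, while Dusp2 and Dusp5 stayed called in 6 of 6. Of 8 heat shock genes, many of which respond to heat and to tissue handling, 3 were called higher and 0 lower by limma. The limma background was 18.4% and 4.64%. The 3 were Hspb1 (6.09, limma adjusted p = 7.73e-05), Hsp90aa1 (1.78, adjusted p = 0.0143), and Hspa1a (1.31, adjusted p = 0.0386). Hspb1, which is also abundant in muscle, stayed called in 6 of 6 fits without a mouse. Hspa1a did so only without Gm31629-/- mouse 1 (1.73, adjusted p = 0.00689), and Hsp90aa1 lost the call without WT mouse 3 (adjusted p = 0.0600). Hspa8, the most abundant, was not called (-0.54, adjusted p = 0.333).

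The cell types in the samples moved with genotype as well, and in bulk tissue more cells of a type and more RNA per cell cannot be told apart. All 8 endothelial, 8 macrophage, 8 fibroblast, and 7 neutrophil markers were called higher in Gm31629-/- mice. So were 9 of 10 smooth muscle, 8 of 9 enteric neuron and glia, 7 of 8 B and plasma cell, 3 of 8 T cell, and 3 of 5 erythrocyte markers. The background was 18.4% of all tested genes. Some of these markers, such as Tek, Sox10, and Mmp8, had WT means below the filter and were tested only through their Gm31629-/- values. Summed smooth muscle markers were 1423 to 2313 FPKM in Gm31629-/- mice and 11.9 to 35.4 FPKM in WT mice, and summed macrophage markers were 326 to 669 and 31.9 to 39.4 FPKM. The corresponding sums were 203 to 567 and 17.4 to 37.6 FPKM for fibroblasts, 47.9 to 102 and 2.66 to 6.96 FPKM for endothelium, 44.2 to 149.6 and 2.63 to 4.62 FPKM for neurons and glia, and 513 to 1032 and 70.4 to 128 FPKM for neutrophils. They were 305 to 521 and 117 to 132 FPKM for B and plasma cells, 19.3 to 36.4 and 8.22 to 12.4 FPKM for T cells, and 144 to 3005 and 38 to 141 FPKM for erythrocytes. Sdc1, which was not called, held 94.9 to 113 FPKM of the B and plasma cell sums in WT mice. Summed epithelial markers were 7877 to 10412 FPKM in Gm31629-/- mice and 15745 to 17642 FPKM in WT mice. Of these 10 markers 3 were called lower, against 4.64% of all tested genes. The 3 were the abundant genes Krt8, Krt19, and Car1, which weigh heavily on the sum. Their means were 2042, 1042, and 1249 FPKM in Gm31629-/- mice and 4198, 2068, and 4692 FPKM in WT mice. Epcam and Cdh1 were nearly equal between genotypes (log2 fold change 0.005 and -0.042), and the rest were lower without being called. Neural markers including Elavl4, Prph, Sox10, and S100b and the fibroblast marker Pi16 were listed at 0 in at least 1 library. Gm31629-/- mouse 2, the highest for the members, also had the highest sums for macrophages (669 FPKM), fibroblasts (567 FPKM), endothelium (102 FPKM), and neurons and glia (149.6 FPKM). Its sum of heat shock genes was also the highest (1019 FPKM, of which Hspa8 held 469). Its sums for smooth muscle (1609 FPKM), neutrophils (737 FPKM), T cells (30.7 FPKM), and B and plasma cells (331 FPKM) were not the highest. Nor was its sum for epithelium (7938 FPKM), and its erythrocyte sum (144 FPKM) was the lowest of the Gm31629-/- mice. Ly6g held most of the neutrophil sum, with 288, 596, and 965 FPKM in Gm31629-/- mice 1 to 3. Of the other neutrophil markers, S100a8, S100a9, Mmp8, and Retnlg were highest in Gm31629-/- mouse 1, and Csf3r and Cxcr2 in mouse 2. The part of these cell types, of sex, and of handling in the values of Dusp1, Junb, and the other members was not tested.

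Over the 6 libraries, the genes whose pattern of log2(FPKM + 1) lay closest to that of Fos were Gm21769, Galnt3, Mir7237, Ctsc, and Duoxa2, with root mean square differences of 0.30 to 0.36 after centering each gene on its mean. Being chosen for this likeness, all 5 were highest in Gm31629-/- mouse 2 and none was called, as for Fos. The likeness of Gm21769 and Mir7237 rests on few fragments, about 4 to 11 per library for Gm21769 and 0 to 4 for the microRNA gene Mir7237, which was listed at 0 in Gm31629-/- mouse 1 and WT mouse 3. Of the other members, Ier2 was the closest to Fos (0.48, rank 81 of 14656 genes), followed by Egr1 (0.55, rank 423), and Dusp1 was the farthest (0.94, rank 11534).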

How the data were processed

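RNA-Seq of distal colon from 3 Gm31629-/- and 3 WT mice treated with DSS was read from 1 table that the authors deposited as FPKM for 27546 genes, with a column per mouse matched to its title. The submitters' processing notes name HISAT2 2.1.0, HTSeq 0.6.0, and GRCm38, and the annotation release is not given in the sources used here. Symbols and exon lengths came from GENCODE M21 (GRCm38), which matched 27488 identifiers. FPKM is not corrected for transcripts that take up a large part of a library. Depth was found as the number that made low values whole: among values of at most 20 fragments, 96.3% (lowest library) to 97.2% (highest) lay less than 0.1 from a whole number. A value of 0 allows up to 3 fragments, for counting error only.

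Differential expression was fitted with limma 3.58.1 in R 4.3.3 (eBayes with a trend) on log2(FPKM + 1) without covariates, and fold changes on this scale understate low genes. With 3 mice per group an exact permutation test cannot give p under 0.10, so none was run. The methods name DEGseq, which was not used. The fit was tested on simulated data. Alternatives were no filter, a pseudocount of 0.1, a mean of at least 5 FPKM, TPM scaling, median ratio scaling, no trend, voom, a replicate block, and leaving out each mouse. The members and lists were chosen with earlier results of these data known. Named genes were the 10 members, Fosl2, Jund, from each list the 3 called genes with the largest change and the most abundant gene, and the 5 genes nearest Fos. Other genes, such as Myc, Nr4a2, and Egr3, were named after their values were seen, and some listed genes are not reported here by name. Promoters were from RefSeq (GRCm38.p6), and figures used matplotlib 3.10.9.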

Additional observations from a re-analysis of the deposited data

How the results depend on the processing

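Dusp1 stayed called higher in all 8 settings tried and in all 6 fits that left out a mouse. The number of members called higher, 2 as reported, was 1 without the filter, 1 after median ratio rescaling, and 1 with the replicate block, and ranged from 1 to 4 when each mouse was left out. In each of those counts of 1 the gene lost was Junb, whose adjusted p was 0.0783, 0.114, and 0.0617. Over all tested genes, 956 in place of 2704 were called higher with a mean of at least 5 FPKM, where fewer genes were tested, and 1217 in place of 680 were called lower after median ratio rescaling. The share of calls that were higher was 79.9% as deposited, 66.0% with the filter at 5 FPKM, and 64.7% after median ratio rescaling. After that rescaling the log2 fold changes turned to -0.21 for Fos, -0.22 for Jun, -0.069 for Fosl2, -0.19 for Ctsc, and -0.21 for Duoxa2, none of them called. When each mouse was left out, the sign also varied for Fos (-0.34 to 0.50), Jun (-0.10 to 0.20), Nab1 (-0.041 to 0.54), Gm21769 (-0.35 to 0.21), Galnt3 (-0.036 to 0.51), Mir7237 (-0.15 to 0.92), Ctsc (-0.36 to 0.48), and Duoxa2 (-0.52 to 0.59). Deviations of same-numbered mice from their group means had correlations of 0.04, -0.11, and 0.01, so expression showed little pairing by replicate number. Mice that shared a litter or cage need not share such deviations, so these values cannot tell whether the mice were paired. The replicate block gave 2709 genes higher and 648 lower. The causes were not tested. Depth limits genes of few fragments, such as Egr2 with about 8 to 16 in WT mice.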
